A study of Mus musculus with 6 samples.

Results

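RNA levels, not pathway activity, were read for 9 genes of bone morphogenetic protein (BMP) signalling in RNA-seq of mouse aortic vascular smooth muscle cells (VSMCs). The 9 genes were the ligands *Bmp2* and *Bmp4*, the receptors *Bmpr1a* and *Bmpr2*, the antagonist *Grem1*, the inhibitor *Smad6* and the targets *Id1*, *Id2* and *Id3*. They were taken from the deposited expression table by gene symbol, and all 9 were found among its 18112 genes. The cells were grown from aortas of C57BL/6 mice that carry a floxed second exon of *Smyd2*, a lysine methyltransferase gene. The controls were 3 samples from *Smyd2* fl/fl mice, which have the floxed allele and no Cre, and they were compared with 3 knockout samples from *Smyd2* SMC-/- mice, in which Cre under the *Tagln* (SM22α) promoter deletes that exon. *Tagln* can be active in cells other than smooth muscle, so the deletion is not limited to this cell type by design. According to the methods, cells were isolated from mice aged 8 to 10 weeks, used at passage 4 and starved of serum overnight, while the labels give passage 6 in medium with 10% serum and other extraction and library kits. The labels do not say whether the samples of a group came from separate animals or cultures, so the p-values measure only the spread between these samples, which may be technical.

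BMPs are secreted ligands of the transforming growth factor beta superfamily that bring type I receptors such as BMPR1A together with type II receptors such as BMPR2 at the cell surface. The active receptor complex phosphorylates SMAD proteins, which join SMAD4, enter the nucleus and activate target genes, among them the ID genes. Gremlin, the product of *Grem1*, binds BMPs outside the cell and keeps them from their receptors, and SMAD6 acts inside the cell against the same signal. ID proteins have no DNA-binding region of their own and pair with E proteins, which they keep from DNA. In the vessel wall the pathway takes part in smooth muscle differentiation and calcification, and inherited loss of BMPR2 function can cause pulmonary arterial hypertension.

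The level of each gene in each library is given as FPKM, a fragment number corrected for gene length and library size, so that levels can be compared between genes. From the steps between low FPKM values, the libraries were estimated to hold between 17300000 and 20300000 fragments, an approximate range because 74.7% to 77.2% of the low values came within 0.15 of a whole number of fragments, against 30% for random values. The same fit put the mean fragment length between 60 and 120 bases, depending on the library. The length was thus poorly fixed, and the depth and the fragment numbers drawn from it are rough. *Smyd2* itself, read first as a check of the labels, had 7.87, 3.10 and 3.0 FPKM in control replicates 1, 2 and 3, and 1.67, 0.40 and 0.80 FPKM in knockout replicates 1, 2 and 3. No knockout library reached the level of any control. In limma the adjusted p of *Smyd2* was 0.105, or 0.0189 after blocking by replicate number, over a range of 0.00126 to 0.305 in the alternatives.

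The libraries numbered 1 stood apart from those numbered 2 and 3 in both groups, and the calls and the tests of the 9 BMP genes are therefore also given for replicates 2 and 3 alone. Among 8 listed smooth muscle markers, *Acta2* was the most abundant, with 201 to 268 FPKM in knockout cells and 682 to 761 FPKM in controls, whereas *Myh11*, *Des* and *Myocd* stayed under 0.5 FPKM in every library. Of the other 4, *Smtn* had 45.9 to 63.1, *Tagln* 12.5 to 87.3, *Cnn1* 2.70 to 21.0 and *Lmod1* 1.22 to 6.02 FPKM over all libraries, so that 3 of the 8 markers, *Myh11* among them, were near 0 (highest value 0.48 FPKM, *Myocd* in control replicate 1) and 5 were not. The summed FPKM of the smooth muscle list was 922, 821 and 814 in controls and 263, 429 and 376 in knockout cells. *Acta2* alone among the 5 tested genes of this list passed the test, beside 2.44% of all genes. Of 8 fibroblast markers, all were tested, *Col1a1* was the most abundant, and the sums were 671, 1337 and 1245 FPKM in controls and 1417, 1412 and 1045 FPKM in knockout cells. *Dcn*, from that list, had 13.9 and 25.6 FPKM in the libraries numbered 1 and between 257 and 383 FPKM in the other 4. *Dpt*, from the same list, was lower in knockout cells and was its 1 gene past the test, with 65.5 to 144 FPKM in controls against 0.63 to 3.31 FPKM. The list went both ways, since the groups also did not overlap for *Col1a1*, higher in knockout cells (mean ratio 2.07), and for *Pdgfra* (0.30) and *Thy1* (0.29), lower in them, while *Lum* had a mean ratio of 10.1 with overlapping groups, and *Ly6a* (0.41) was called with the replicate block (adjusted p = 0.0404). The endothelial list, with 7 of 8 genes in the table, summed to at most 5.41 FPKM in any library, and *Kdr* had its highest mean over the 6 libraries, although *Pecam1* exceeded it in all 3 controls, and *Cdh5* and *Tie1* had at most 0.01 FPKM. The 6 macrophage markers summed to between 18.3 and 42.6 FPKM, led by *Cd14*, with *Ptprc* and *Adgre1* at no more than 0.02 FPKM. Of the endothelial and macrophage markers 1 and 4 were tested, and none passed. The groups did not overlap for *Kdr* (mean ratio 4.80) and *Csf1r* (2.65), which were higher in knockout cells, or for *Pecam1* (0.13), which was lower and not tested. In replicates 2 and 3 alone, where 29.0% of all genes were called, the lists again went both ways. *Lmod1* was called higher and *Acta2* lower among the 5 smooth muscle markers tested. Among the 4 macrophage markers tested, *Csf1r* was called higher and *Lyz2* lower. *Kdr*, the 1 endothelial marker tested, was called higher, and of the 8 fibroblast markers 1 (*Lum*) was called higher and 5 lower. The leading macrophage marker, *Cd14*, had a mean ratio of 0.80 over all libraries and a log2 fold change of −0.56 in replicates 2 and 3 alone. Over all libraries *Tagln*, *Cnn1* and *Smtn* had log2 fold changes of −0.92, −0.91 and −0.050. In replicates 2 and 3 alone those of the same 3 genes were −0.077, −0.074 and 0.052. The methods say that endothelium and adventitia were taken off before digestion of the media and that each batch of cells was stained for smooth muscle actin as a check of purity. The part of these marker differences in the BMP results was not tested. In RNA from whole cultures, fewer cells of a type and less RNA per cell cannot be told apart.

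The groups were compared in limma on log2(FPKM + 1) for 12565 genes, those whose mean over the libraries reached 0.5 FPKM, and a gene was called at a Benjamini-Hochberg adjusted p under 0.05. On this scale a log2 fold change is too small for genes with few FPKM. Of the 9 BMP genes, 8 were tested and *Bmp2* was not. *Grem1* was called, as 1 of the 8, against 2.44% of all genes tested. Blocking by replicate number, 2 of the 8 were called, *Grem1* and *Bmp4*, against 10.4% of all genes, and in replicates 2 and 3 alone 3 were called, *Id2* being lower, against 29.0%. The libraries of the groups did not overlap for 4 of the 8, against 28.1% of all genes, and all 4 (*Bmp4*, *Grem1*, *Bmpr1a* and *Bmpr2*) were higher in knockout cells, against 13.1%. The 9 genes were chosen with earlier results of these data known, so these shares do not test the pathway. At a fold change over 2 with an adjusted p under 0.01, the cutoffs named in the methods, 0 of the 8 and 0.422% of all genes were called in limma, and 2 of the 8 and 4.54% of all genes had a fold change over 2 with an unadjusted p under 0.05. The paper's own analysis, whose test it does not name, reported many more changed genes than limma at these cutoffs. Its figure legend gives a stricter adjusted p than its methods.

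**Figure D1:**
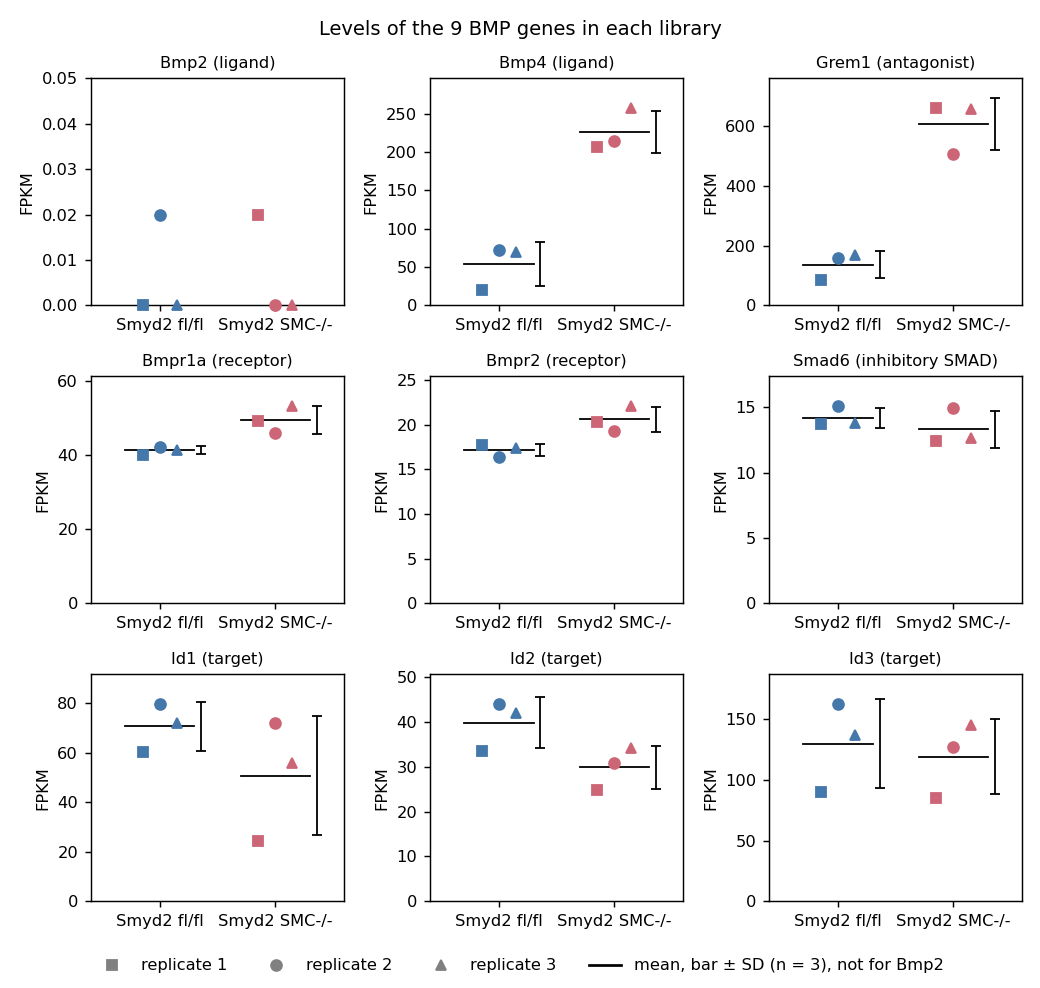
FPKM of the 9 BMP genes in each library, with the groups on the horizontal axis, the replicate number as the symbol, the mean as a line and the SD (n = 3) as a bar; each vertical axis starts at 0, and no mean is drawn for *Bmp2*. *Bmp4* and *Grem1* lay between 206 and 257 and between 508 and 660.9 FPKM in *Smyd2* SMC-/-, above all *Smyd2* fl/fl libraries, while the libraries of the groups overlapped for *Smad6*, *Id1*, *Id2* and *Id3*.

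*Bmp4*, a ligand expressed by many mesenchymal cells, was the most abundant of the BMP ligands, and *Bmp2* was at or near 0. *Bmp4* (NCBI Gene number 12159) had 20.7, 71.8 and 69.4 FPKM in control replicates 1, 2 and 3, and 206, 215 and 257 FPKM in knockout replicates 1, 2 and 3. All 3 knockout libraries were higher than any control library, and the lowest level was that of control replicate 1. The mean was 53.9 ± 28.8 FPKM (SD, n = 3) in controls and 226 ± 27.5 FPKM (SD, n = 3) in knockout cells, a ratio of 4.19. The log2 fold change was 2.23 (standard error, SE, 0.466) with an adjusted p of 0.0638 in limma, which did not pass, and blocking by replicate number lowered the standard error to 0.345 and the adjusted p to 0.0314. A two-sided exact permutation test gave p = 0.1, the smallest that 3 against 3 libraries allow. Within the same-numbered pairs the ratio was 9.97 in replicate 1, 2.99 in replicate 2 and 3.71 in replicate 3. In replicates 2 and 3 alone the log2 fold change was 1.72 (adjusted p = 0.000107), and leaving out control replicate 1 gave 1.66 (adjusted p = 0.0122). Over all alternatives the adjusted p ranged from 0.000107 to 0.235 and the log2 fold change from 1.66 to 2.53.

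*Bmp2* (NCBI Gene number 12156) was listed at 0 in 4 of the 6 libraries and had 0.02 FPKM in control replicate 2 and in knockout replicate 1. On its transcript of 3555 bases 0.02 FPKM corresponds to about 1 fragment, and a floor of 3 fragments to at most 0.0498 FPKM. The gene lay under the mean required for the test, and no difference could be detected at this depth. Of the other 13 ligands listed, *Gdf7* passed the test. *Gdf7*, which encodes a growth and differentiation factor of the BMP family, had 0.36, 0.56 and 0.64 FPKM in controls and 6.94, 3.42 and 3.27 FPKM in knockout replicates 1, 2 and 3. The lowest knockout library was above the highest control library, and its log2 fold change was 1.81 (SE 0.276, adjusted p = 0.0304, or 0.000415 in replicates 2 and 3 alone). The adjusted p rose to between 0.0650 and 0.136 when any 1 library other than knockout replicate 1 was left out. In all, 6 of the 15 ligand genes were tested, 1 was called and higher, against 2.44% of all genes called, and their median log2 fold change was 0.27, beside −0.018 for all genes tested. *Bmp4* made up 76.3% to 78.9% of the summed ligand FPKM in the control libraries, and 77.3%, 95.1% and 96.6% in knockout replicates 1, 2 and 3. *Gdf10*, a ligand picked once its levels were known, was at 3.81, 15.3 and 12.6 FPKM in controls and at 49.5, 0.99 and 1.74 FPKM in knockout replicates 1, 2 and 3, and it is part of the sum behind these shares. Its direction thus differed between the pairs, with a log2 fold change of −0.65 (adjusted p = 0.826) over all libraries and −2.67 (adjusted p = 0.0000852) in replicates 2 and 3 alone.

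*Bmp4* and *Grem1* had the highest log2 fold changes of the 8 tested BMP genes, and the 250 bases before their RefSeq transcription starts are shown to let their promoters be compared. Of the 9 genes, 7 had an entry in the RefSeq promoter table, and *Bmp2* and *Id1* did not. *Bmp4* lies on chromosome 14 of GRCm38 from 46383520 to 46390669 on the minus strand, and *Grem1* on chromosome 2 from 113746164 to 113758646 on the minus strand, in the GENCODE M21 annotation matched by RefSeq transcripts, since the deposited table gives no positions. The sequences below are from RefSeq on GRCm38.p6, minus strand, at chr14:46390670-46390919 for *Bmp4* and at chr2:113758649-113758898 for *Grem1*, and capitals mark matches to GGCGCC, a GC-rich motif bound by SMAD proteins, or to CAGAC, the SMAD box, on either strand.
Bmp4: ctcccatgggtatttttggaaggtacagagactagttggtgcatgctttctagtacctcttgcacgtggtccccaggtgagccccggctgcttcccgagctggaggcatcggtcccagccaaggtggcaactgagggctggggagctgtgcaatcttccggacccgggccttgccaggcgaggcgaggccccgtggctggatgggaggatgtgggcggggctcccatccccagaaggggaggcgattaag
Grem1: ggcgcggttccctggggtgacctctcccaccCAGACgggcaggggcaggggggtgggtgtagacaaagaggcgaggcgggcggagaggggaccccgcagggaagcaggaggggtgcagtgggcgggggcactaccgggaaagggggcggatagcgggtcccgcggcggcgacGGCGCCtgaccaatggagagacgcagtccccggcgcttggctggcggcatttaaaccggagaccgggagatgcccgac
The *Grem1* window held 1 match to GGCGCC and 1 to CAGAC, and the *Bmp4* window held neither. Over the 32851 promoter windows of the same 250 bases, 9.59% held GGCGCC and 42.2% held CAGAC. The CArG box, the binding motif of serum response factor, was found in neither window and in 1.47% of all windows. Of the other 5 BMP genes with a window, *Bmpr1a*, *Bmpr2* and *Id2* each had 1 match to GGCGCC, *Id3* had 2 to CAGAC, and *Smad6* had none of the 3 motifs. GGCGCC was thus found for 4 of the 7 BMP genes with a window, beside 9.59% of all windows. CAGAC was found only for *Grem1* and *Id3* among them, beside 42.2% of all windows. No test was made of these counts, and the windows compared were not matched for their share of G and C.

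*Grem1* was higher in knockout cells and was the most abundant of the BMP antagonists. *Grem1* (NCBI Gene number 23892) had 84.9, 158 and 168 FPKM in control replicates 1, 2 and 3, and 660.9, 508 and 657 FPKM in knockout replicates 1, 2 and 3. The groups did not overlap, and as for *Bmp4* the lowest library was control replicate 1. The mean was 137 ± 45.3 FPKM (SD, n = 3) in controls and 609 ± 87.5 FPKM (SD, n = 3) in knockout cells, a ratio of 4.45, and the gene ranked 463 and 69 of 18112 genes by mean level in these groups. The log2 fold change was 2.20 (SE 0.281, 95% confidence interval 1.52 to 2.87, adjusted p = 0.0177 in limma), and the two-sided exact permutation test gave p = 0.1. The ratio within pairs was 7.79 in replicate 1, 3.22 in replicate 2 and 3.92 in replicate 3, and in replicates 2 and 3 alone the log2 fold change was 1.82 (adjusted p = 0.000202). The call was lost without control replicate 2 (adjusted p = 0.0703) or replicate 3 (0.0652) and without knockout replicate 2 (0.0775) or replicate 3 (0.102), while the log2 fold change stayed between 1.82 and 2.37 in all alternatives.

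**Figure D2:**
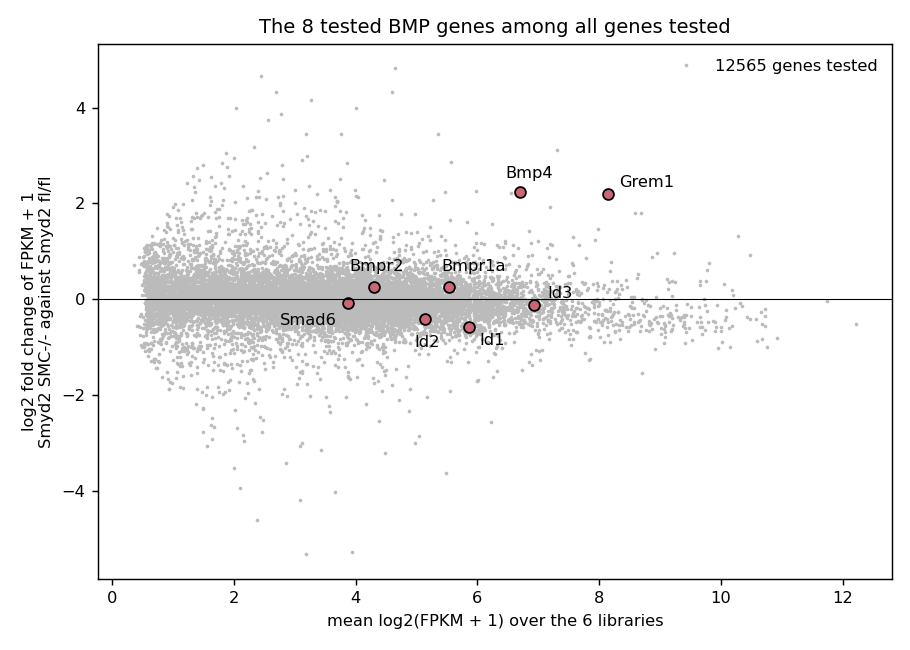
Log2 fold change of FPKM + 1, *Smyd2* SMC-/- against *Smyd2* fl/fl, on the vertical axis against the mean log2(FPKM + 1) over the 6 libraries on the horizontal axis, for the 12565 genes tested (grey points) and the 8 tested BMP genes (labelled). *Bmp4* lies at 2.23 and *Grem1* at 2.20, and the other 6 lie between −0.59 and 0.25.

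The level of *Grem1* relative to *Bmp4* overlapped between the groups, since both genes were higher in knockout cells. The ratio of *Grem1* FPKM to *Bmp4* FPKM was 4.11, 2.20 and 2.42 in control replicates 1, 2 and 3, and 3.21, 2.36 and 2.55 in knockout replicates 1, 2 and 3. In both groups the highest ratio was that of replicate 1. *Grem1* took 39.2%, 49.2% and 51.9% of the summed FPKM of the listed antagonists in controls and 81.9%, 68.7% and 71.6% in knockout cells, so that its share was higher in each knockout library than in any control.

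Beside *Grem1*, 1 other secreted antagonist was called over all libraries. Of 15 listed, 13 were in the table and 8 were tested, of which *Grem1* was called higher and *Bmper* lower, against 2.44% of all genes called, and their median log2 fold change was 0.42. *Bmper*, whose product binds BMPs outside the cell, had 9.50, 10.1 and 8.18 FPKM in controls and 4.53, 2.19 and 2.23 FPKM in knockout replicates 1, 2 and 3. No knockout library reached the lowest control, and the log2 fold change was −1.41 (SE 0.248, adjusted p = 0.0444, or 0.000230 in replicates 2 and 3 alone). The call of *Bmper* was lost with any 1 library other than knockout replicate 1 left out (adjusted p from 0.0853 to 0.186), without the filter on low values (0.0668) and after rescaling to TPM (0.0535). *Fst*, the gene of follistatin, which binds activins and some BMPs, had 1.36, 6.87 and 6.03 FPKM in controls and 12.4, 17.0 and 23.5 FPKM in knockout cells. Its groups did not overlap, and its log2 fold change of 1.83 had an adjusted p of 0.109, or 0.0260 with the replicate block and 0.000701 in replicates 2 and 3 alone (range 0.000701 to 0.331 in the alternatives). *Crim1*, whose product is a membrane protein that binds BMPs, had 57.9, 40.8 and 41.3 FPKM in controls and 54.7, 87.9 and 100 FPKM in knockout replicates 1, 2 and 3. Its groups overlapped through replicate 1, and the log2 fold change was 0.76 (adjusted p = 0.177), or 1.18 (adjusted p = 0.000344) in replicates 2 and 3 alone. *Nbl1*, an antagonist of the DAN family, had 14.3, 25.3 and 23.8 FPKM in controls and 20.0, 45.5 and 54.0 FPKM in knockout cells. Replicate 1 was the lowest library of each group, the groups overlapped, and the adjusted p was 0.317, or 0.0416 with the replicate block and 0.00101 in replicates 2 and 3 alone (range 0.00101 to 0.670).

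*Bmpr1a* and *Bmpr2*, which encode a type I and a type II BMP receptor, were each about 1.20 times as high in knockout cells and did not pass the test. *Bmpr1a* (NCBI Gene number 12166, bases 34410734 to 34503341 of chromosome 14 in the same annotation) had 40.0, 42.2 and 41.5 FPKM in controls and 49.2, 45.9 and 53.2 FPKM in knockout replicates 1, 2 and 3. *Bmpr2* (NCBI Gene number 12168, bases 59763400 to 59879014 of chromosome 1) had 17.7, 16.5 and 17.5 FPKM in controls and 20.4, 19.4 and 22.1 FPKM in knockout cells. For both genes every knockout library was above every control library. The log2 fold changes were 0.25 (95% confidence interval −0.018 to 0.53) for *Bmpr1a* and 0.25 (−0.034 to 0.53) for *Bmpr2*, with adjusted p of 0.275 and 0.299 in limma and an exact permutation p of 0.1 for each. In replicates 2 and 3 alone they were 0.24 and 0.27 (adjusted p = 0.145 and 0.0996).

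Of 7 listed receptor genes, 6 were tested and 0 were called in limma, with 1 at an unadjusted p under 0.05, against 20.3% of all genes, and their median log2 fold change was 0.13. That gene was *Acvrl1*, which encodes the type I receptor ALK1 of endothelial cells. Its knockout libraries averaged 0.493 FPKM, just short of the 0.5 FPKM filter, so it was tested only because of its control libraries. *Acvrl1* had 1.48, 2.22 and 2.03 FPKM in controls and 0.22, 0.52 and 0.74 FPKM in knockout replicates 1, 2 and 3, with no overlap. Its log2 fold change was −0.97 (adjusted p = 0.0683, or 0.0306 with the replicate block and 0.00350 in replicates 2 and 3 alone, range 0.00350 to 0.228), and quantile normalization gave an adjusted p of 0.0460. *Bmpr1b*, a type I receptor gene, had 1.45, 0.38 and 0.47 FPKM in controls and 1.61, 1.18 and 1.02 FPKM in knockout cells, with overlapping groups and a log2 fold change of 0.40 (adjusted p = 0.468, or 0.0224 in replicates 2 and 3 alone). In those replicates 1 receptor gene was thus called higher and 1 lower, or 33.3% of those tested beside 29.0% of all genes. Of the 4 co-receptor genes tested, 1 was called, *Rgma*, against 2.44% of all genes, and the median was −0.35. *Rgma*, a membrane-anchored BMP co-receptor, had 13.5, 15.2 and 14.8 FPKM in controls and 8.92, 7.63 and 7.93 FPKM in knockout cells, with a log2 fold change of −0.76 (SE 0.129, adjusted p = 0.0417, or 0.00116 in replicates 2 and 3 alone). The groups of *Rgma* did not overlap, but the call was lost without any 1 library other than knockout replicate 1 (adjusted p from 0.0506 to 0.195), without the filter (0.0504) and after rescaling to TPM (0.0592). *Tgfbr3*, the gene of betaglycan, had 12.1, 13.1 and 14.1 FPKM in controls and 22.0, 21.0 and 30.4 FPKM in knockout cells. Its log2 fold change was 0.84 (adjusted p = 0.0606, or 0.0259 with the replicate block, 0.0489 after rescaling to TPM and 0.0101 in replicates 2 and 3 alone, range 0.0101 to 0.206). *Eng*, the gene of endoglin and the most abundant co-receptor, had 84.4 to 170 FPKM in controls and 70.0 to 94.2 FPKM in knockout cells, with overlapping groups and an adjusted p of 0.435.

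**Figure D3:**
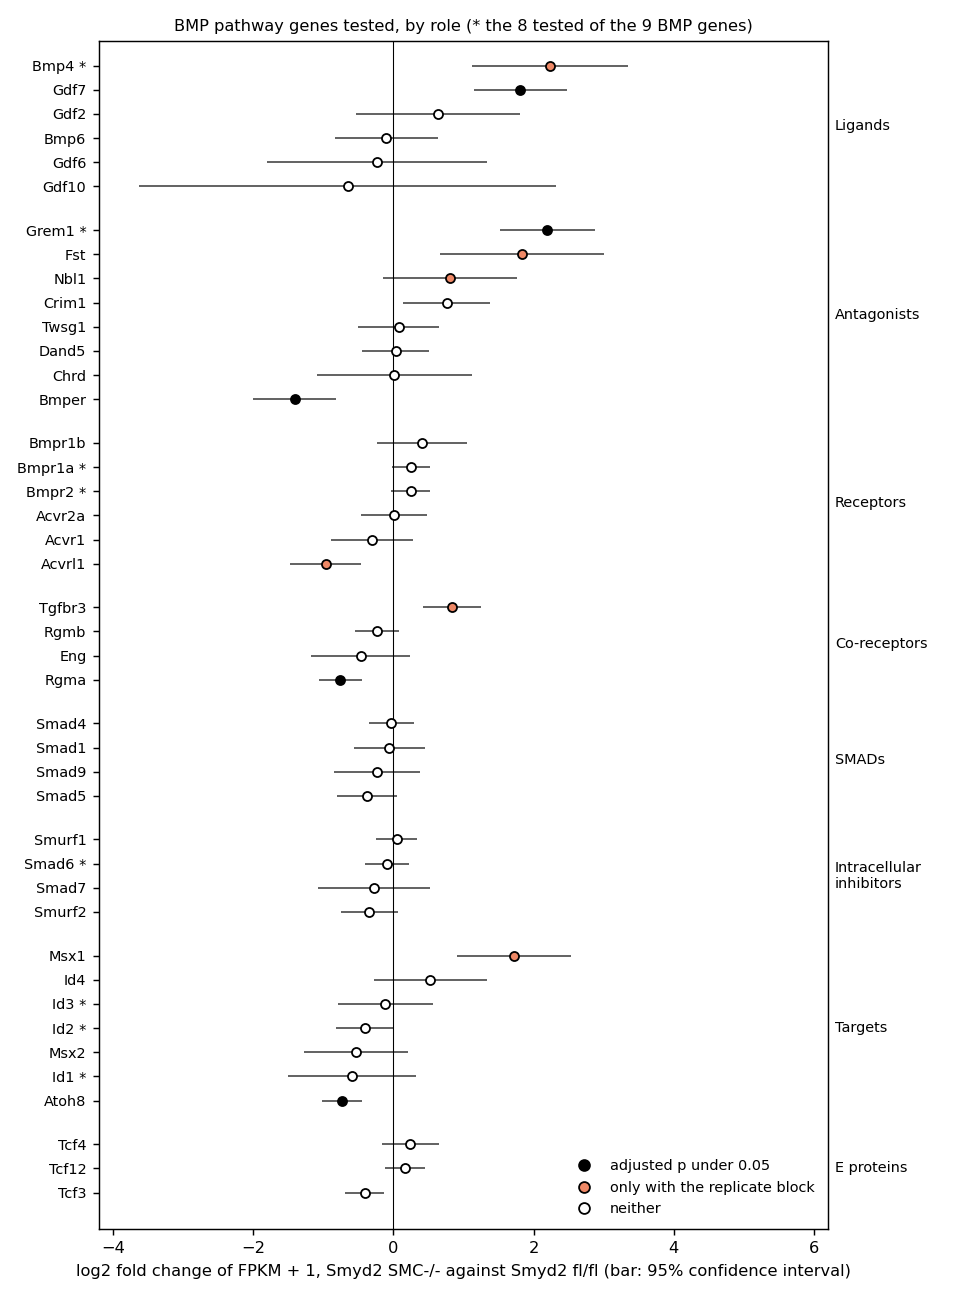
Log2 fold change of FPKM + 1, *Smyd2* SMC-/- against *Smyd2* fl/fl, with its 95% confidence interval, for the 42 tested BMP pathway genes by role. Black points have an adjusted p under 0.05 in limma (5 genes), orange points only with the replicate block (6 genes), and the rest neither, and stars mark the 8 tested BMP genes.

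The SMADs that carry the signal and the inhibitors inside the cell gave no call over all 6 libraries. *Smad6* (NCBI Gene number 17130, bases 63953076 to 64022059 of chromosome 9), a target of the pathway as well as its inhibitor, had 13.7, 15.1 and 13.8 FPKM in controls and 12.4, 14.9 and 12.6 FPKM in knockout replicates 1, 2 and 3. The groups overlapped, with means of 14.2 ± 0.784 and 13.3 ± 1.39 FPKM (SD, n = 3 each). The log2 fold change was −0.090 (95% confidence interval −0.40 to 0.22, adjusted p = 0.766, exact permutation p = 0.3), −0.068 in replicates 2 and 3 alone, and 0.027 after rescaling to TPM. Of the 4 SMAD genes and the 4 inhibitors tested, 0 were called in limma, against 2.44% of all genes, and 0 had an unadjusted p under 0.05, against 20.3%. Their median log2 fold changes were −0.15 and −0.18. *Smad4*, the most abundant of the SMAD genes, had between 32.3 and 36.04 FPKM in controls and between 29.2 and 37.5 FPKM in knockout cells, and a log2 fold change of −0.034 that changed sign in 5 of 13 alternatives. In replicates 2 and 3 alone 1 of the 4 SMAD genes was called, against 29.0% of all genes, namely *Smad5*, which carries the BMP signal, with 15.2, 17.7 and 19.7 FPKM in controls and 16.03, 10.8 and 13.1 FPKM in knockout replicates 1, 2 and 3. Its log2 fold change was −0.61 (adjusted p = 0.0101) in those replicates and −0.38 (0.297) over all libraries, where the groups overlapped. *Smurf2*, a ubiquitin ligase gene and the most abundant inhibitor, had 28.6 to 40.8 FPKM in controls and 23.1 to 27.4 FPKM in knockout cells (adjusted p = 0.313).

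*Id1*, *Id2* and *Id3* were not higher in knockout cells in the fit, where their log2 fold changes lay between −0.59 and −0.12, although *Id3* changed sign without control replicate 2 (0.065), without knockout replicate 1 (0.11) and after rescaling to TPM (0.0068), which moved the median of all genes by 0.11 and left *Id3* at −0.088 relative to it. *Id1* (NCBI Gene number 15901, bases 152736251 to 152737410 of chromosome 2) had 60.1, 79.6 and 72.1 FPKM in controls and 24.5, 72.0 and 55.7 FPKM in knockout replicates 1, 2 and 3. The lowest library was knockout replicate 1, and the groups overlapped. The log2 fold change of *Id1* was −0.59 (95% confidence interval −1.50 to 0.32, adjusted p = 0.453, exact permutation p = 0.2). It was −0.25 in replicates 2 and 3 alone (adjusted p = 0.210) and −0.14 without knockout replicate 1 (adjusted p = 0.650). *Id2* (NCBI Gene number 15902, bases 25093799 to 25097140 of chromosome 12) had 33.4, 43.9 and 42.0 FPKM in controls and 24.7, 30.7 and 34.0 FPKM in knockout cells. Each knockout library was below the control of the same number, with a difference in log2(FPKM + 1) of −0.42, −0.50 and −0.29, while the groups overlapped. The log2 fold change of *Id2* was −0.41 (95% confidence interval −0.82 to 0.0059, adjusted p = 0.251, exact permutation p = 0.2). The adjusted p of *Id2* was 0.0605 in the fit with the replicate block, 0.0252 with a block for replicate 1 against the others and 0.0239 in replicates 2 and 3 alone (range 0.0239 to 0.498). *Id3* (NCBI Gene number 15903, bases 136143497 to 136145755 of chromosome 4) had 90.5, 163 and 137 FPKM in controls and 85.1, 127 and 145 FPKM in knockout cells. Replicate 1 was the lowest library of both groups, and the log2 fold change of *Id3* was −0.12 (95% confidence interval −0.80 to 0.56, adjusted p = 0.870, exact permutation p = 0.6), or −0.13 in replicates 2 and 3 alone. *Id4*, the other ID gene of the target list, had 0.98, 1.33 and 1.06 FPKM in controls and 1.17, 4.13 and 1.54 FPKM in knockout cells. Its level was higher in all 3 knockout libraries than in the control of the same number, the groups overlapped, and the log2 fold change of 0.52 did not pass (adjusted p = 0.448, or 0.159 in replicates 2 and 3 alone).

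**Figure D4:**
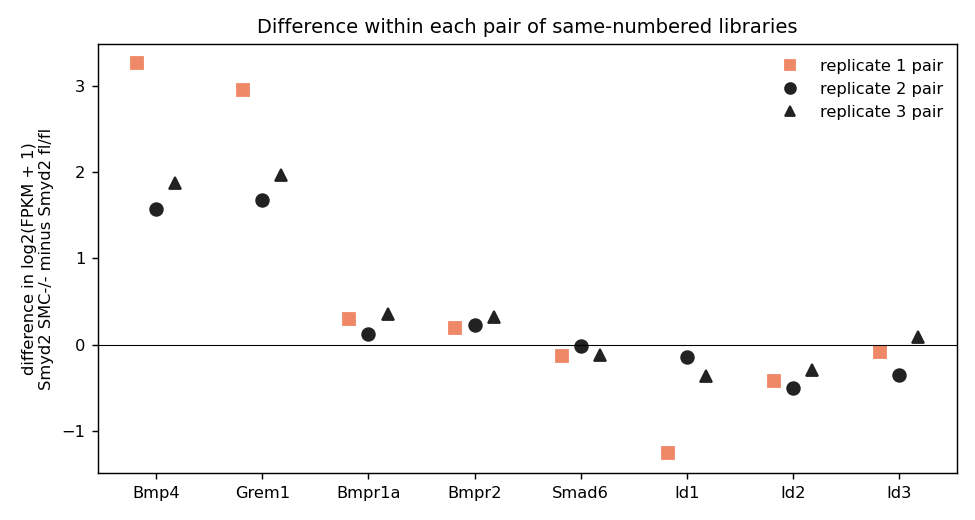
Difference in log2(FPKM + 1) between the *Smyd2* SMC-/- and the *Smyd2* fl/fl library of the same number, for the 8 tested BMP genes. *Bmp4* and *Grem1* were higher in all 3 pairs, by 3.26 and 2.95 in the replicate 1 pair, and *Id1* differed by −1.26 in that pair and by −0.14 and −0.37 in the other pairs.

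Of 8 listed target genes, 7 were tested, 1 was called, against 2.44% of all genes, and the median log2 fold change was −0.41. The called gene was *Atoh8*, a transcription factor gene induced by BMP signals, which had 82.6, 79.5 and 81.3 FPKM in controls and 50.2, 43.1 and 52.4 FPKM in knockout replicates 1, 2 and 3. The 3 controls of *Atoh8* were close together and all above the knockout libraries, with a log2 fold change of −0.73 (SE 0.121, adjusted p = 0.0393, or 0.00397 in replicates 2 and 3 alone). Leaving out any 1 library other than knockout replicate 1 gave an adjusted p of 0.0640 to 0.173, and rescaling to TPM gave 0.0671. *Msx1*, a homeobox gene that BMP signals induce in several tissues, had 0.23, 0.41 and 0.47 FPKM in controls and 6.67, 2.34 and 2.57 FPKM in knockout cells. It thus lay on the other side of 0 from *Atoh8*, with no overlap and a log2 fold change of 1.72 (adjusted p = 0.058, or 0.0407 with the replicate block and 0.000796 in replicates 2 and 3 alone). Without knockout replicate 1, its highest library, the adjusted p of *Msx1* was 0.0182, over a range of 0.000796 to 0.188 in the alternatives. The controls of *Msx1* averaged 0.37 FPKM, short of the 0.5 FPKM filter, so the gene was tested only because of its knockout libraries.

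The E proteins, the partners of the ID proteins, gave no call among the 3 genes tested in limma, and 1 had an unadjusted p under 0.05, beside the 20.3% of all genes. *Tcf3*, that gene and the most abundant of the 3, had 41.0, 42.6 and 40.5 FPKM in controls and 33.8, 28.4 and 30.6 FPKM in knockout replicates 1, 2 and 3. Its groups did not overlap, and its log2 fold change of −0.41 had an adjusted p of 0.123, or 0.0105 in replicates 2 and 3 alone (range 0.0105 to 0.366). The summed FPKM of *Id1* to *Id4* was 185, 288 and 252 in controls and 135, 234 and 237 in knockout cells, and the ratio of this sum to that of the 3 E protein genes was 2.20, 3.17 and 2.73 against 1.55, 2.98 and 2.56. The ratio was lower in knockout cells within each pair of same-numbered libraries, but it overlapped between the groups. Knockout replicate 2 (2.98) was above control replicate 3 (2.73), so this direction depends on how replicates 2 and 3 are paired.

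Over all roles, 59 of 62 listed pathway genes were in the table and 42 were tested, of which 2 were called higher and 3 lower, or 11.9% beside the 2.44% of all genes. With the replicate block 7 were higher and 4 lower, or 26.2% beside 10.4%, and in replicates 2 and 3 alone 9 were higher and 8 lower, or 40.5% beside 29.0%. After each library was rescaled to TPM, which raised the median of all log2 fold changes by 0.11, 4 pathway genes were higher and 0 lower, and for all genes the split of 154 higher and 152 lower became 247 and 99. Relative to the median of all genes, the log2 fold change was 2.25 for *Bmp4* and 2.21 for *Grem1* before this rescaling and 2.28 and 2.23 after it. In the same terms *Id1*, *Id2* and *Id3* were at −0.57, −0.39 and −0.099 before and at −0.57, −0.38 and −0.088 after it. The libraries did not overlap for 15 of the 42 pathway genes, or 35.7% beside 28.1%, with 8 higher and 7 lower, beside 1642 and 1891 of all genes. These 15, the block calls and the calls in replicates 2 and 3 alone include *Acvrl1* and *Msx1*, tested only because of their higher group. The median log2 fold change of the 42 genes was −0.047, and that of all genes tested was −0.018. The lists were chosen with earlier results of these data known, so these shares describe the lists and do not test the pathway.

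By mean level in controls the 9 BMP genes ran from *Grem1* (137 FPKM) through *Id3*, *Id1*, *Bmp4*, *Bmpr1a*, *Id2*, *Bmpr2* and *Smad6* to *Bmp2*. In that order the libraries of *Grem1* and *Id3*, of *Id1* and *Bmp4*, of *Bmp4* and *Bmpr1a*, and of *Bmpr1a* and *Id2* overlapped. *Id1* was nevertheless above *Bmp4* in all 3 controls, while for the other 3 of these pairs the order changed from library to library. In *Smyd2* SMC-/- the order was *Grem1* (609 FPKM), *Bmp4*, *Id3*, *Id1*, *Bmpr1a*, *Id2*, *Bmpr2*, *Smad6* and *Bmp2*. There only the neighbours *Id1* and *Bmpr1a* overlapped, with *Id1* above in 2 of 3 libraries, and *Bmp4* stood next to *Grem1*, where in controls *Id3* and *Id1* lay between them.

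Genes whose levels followed those of 3 BMP genes most closely were found among all genes tested by Pearson's r of log2(FPKM + 1) over the 6 libraries, which share the division into groups and that of replicate 1 from the rest. For *Bmp4* they were *Fmod* (fibromodulin, r = 0.997), *Sulf2* (a heparan sulfate sulfatase, r = 0.995) and *Ckb* (a creatine kinase, r = 0.994). *Fmod* had 7.34, 24.4 and 21.9 FPKM in controls and 54.6, 51.2 and 68.0 FPKM in knockout cells, lowest in control replicate 1 as for *Bmp4*. For *Grem1* they were *C4bp* (a complement regulator, r = 0.997), *Snx14* (a sorting nexin, r = 0.997) and *Gm46306* (r = 0.997). *C4bp* had 0.85, 2.12 and 1.86 FPKM in controls and 9.0, 7.22 and 8.46 FPKM in knockout cells. For *Id1* they were *Neurl1a* (r = 0.996), *Clybl* (r = 0.983) and *Dmd* (dystrophin, r = 0.980), each lowest in knockout replicate 1. Between *Bmp4* and *Grem1* r was 0.97, between *Id1* and *Id2* it was 0.83, and between *Id1* and *Bmp4* it was −0.35.

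Some of these genes share sequence with another gene. In the GENCODE annotation an exon of *Bmp4* overlaps one of *Gm15217*, an exon of *Bmpr1a* one of *Gm17110*, an exon of *Acvrl1* one of *Gm16031*, an exon of *Fst* one of *Gm47040* and an exon of *Rgma* one of *A730056A06Rik*, each on the opposite strand. Also on opposite strands, exons of *Id4* overlap *A330033J07Rik* and *Gm49291*, and an exon of *Eng* overlaps one of *Fpgs* and one of *Crim1* overlaps *Fez2*, which are protein-coding and have their own rows in the deposited table. On the same strand an exon of *Tgfbr3* overlaps *Gm43422*, one of *Smurf2* *Gm27322* and one of *Smad5* *Gm27301*. The sources used here do not say that strand was used in counting, and the reads of such a pair then cannot be told apart. No exon of another gene overlaps *Grem1*, *Bmpr2*, *Smad6*, *Id1*, *Id2* or *Id3* in that annotation. *Hfe2*, *Sostdc1* and *Cer1* of the pathway lists and *Cldn5* of the endothelial list were not analysed here.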

How the data were processed

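Poly-A RNA of 6 samples was sequenced from both fragment ends (BGISEQ-500). The authors used SOAPnuke to filter reads, HISAT and Bowtie2 to map them and RSEM to calculate expression, and deposited FPKM values with 2 decimals for 18112 genes. Bowtie2 and RSEM are also named in the submitters' processing notes. Versions and the genome build are not given in the sources used here. Groups and replicate numbers were taken from the sample labels.

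FPKM plus 1 was taken to log2, and 12565 genes, those whose mean over the 6 libraries reached 0.5 FPKM, entered limma 3.58.1 (R 4.3.3; eBayes with a trend and robust estimation after lmFit). The same genes were kept when libraries were left out. Adjustment was by Benjamini-Hochberg over all genes tested. Exact permutation tests were two-sided (scipy 1.17.1). The fit and the depth estimate were tested on simulated data. Depth was estimated from genes with 1 transcript of 300 to 2000 bases, and floors cover counting error only. Python 3.11.15, pandas 2.3.3, numpy 2.4.6 and matplotlib 3.10.9 were used.

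The replicate numbers come from the labels, and no pairing is named in the methods, so the main comparison had no block. Deviations from the group means correlated across genes between same-numbered libraries by 0.61, 0.46 and 0.53 for replicates 1, 2 and 3. Replicates 2 and 3 of different groups correlated by 0.46 and 0.44, and replicate 1 with them by −0.56 to −0.51. The correlations thus set replicate 1 apart but do not tell replicate 2 from replicate 3. The replicate block and the same-numbered pairs follow the label numbers, and for replicates 2 and 3 they rest on those numbers alone.

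The 9 genes and the lists were chosen with earlier results of these data known. After the analysis 1 gene of the antagonist list was taken out of the lists and counts and is not reported here, which changed no count of calls but moved the median of that list. Named genes are the 9 BMP genes, *Smyd2*, pathway genes with an adjusted p under 0.05 without or with the block, those with a mean of at least 1 FPKM, a log2 fold change of at least 1 in size and no overlap between groups, the most abundant gene of each role, and the 3 genes most like *Bmp4*, *Grem1* and *Id1*. *Gdf10*, *Id4*, *Smad5*, *Bmpr1b* and *Crim1* were added after their values were seen. Alternatives were the pseudocount, no filter, 2 block designs, replicates 2 and 3 alone, leaving out each library, TPM, quantile normalization and the cutoffs of the methods.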

Additional observations from a re-analysis of the deposited data

How the results depend on the processing

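All genes called numbered 306. They numbered 1312 with the replicate block, 2550 with a block for replicate 1 against the others, 3650 in replicates 2 and 3 alone, 53 at the cutoffs of the methods, and 34 to 686 with 1 library left out. Of the 9 BMP genes 1 was called, or 2, 3, 3 and 0 in the same 4 settings and 0 to 2 with 1 library left out. Of the pathway genes 5 were called, or 11, 13, 17 and 0, and 3 without the filter on low values and 0 to 7 with 1 library left out. The counts of 0 arose at the stricter cutoffs and without *Smyd2* fl/fl replicate 2 or 3 or *Smyd2* SMC-/- replicate 2 or 3. The replicate block changed the call of *Bmp4*, *Fst*, *Nbl1*, *Acvrl1*, *Tgfbr3*, *Msx1*, *Ly6a* and *Smyd2* and of no other gene named by its test here. Of 286 log2 fold changes of 22 named genes in the alternatives, 217 kept their sign and their side of the threshold, 29 lost a call, 31 gained one and 9 changed sign. The sign changes were those of *Id3* without *Smyd2* fl/fl replicate 2 (0.065), without *Smyd2* SMC-/- replicate 1 (0.11) and after rescaling to TPM (0.0068), of *Smad6* after rescaling to TPM (0.027), and of *Smad4* in replicates 2 and 3 alone (0.021), without *Smyd2* fl/fl replicate 3 (0.012), without *Smyd2* SMC-/- replicate 1 (0.052), after rescaling to TPM (0.088) and after quantile normalization (0.012). With 1 library left out the log2 fold change of *Id3* ranged from −0.36 to 0.11 and that of *Smad4* from −0.12 to 0.052. None of these values passed the test. Rescaling to TPM moved the median of all genes by 0.11, and relative to that median *Id3*, *Smad6* and *Smad4* kept their sign (−0.088, −0.068 and −0.0069), so that 3 of the 9 sign changes go with that shift. The cause of the other 6 was not tested. With 1 library left out the smaller group has 2 samples, and so does each group in replicates 2 and 3 alone. Depth limits *Bmp2*, at no more than about 1 fragment in a library.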
